A study of Homo sapiens with 42 samples.

Results

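Transcripts of 40 genes of the endoplasmic reticulum (ER) folding and quality-control machinery were followed through 2 models of senescence and through depletion of COPB2. The genes were taken, by symbol, from a list of ER chaperones, disulfide isomerases, components of ER-associated degradation (ERAD) and sensors of the unfolded protein response (UPR), and all 40 were found among the 28266 genes of the count table. IMR90 is an established strain of human lung fibroblasts, and IMR90 ER:RAS cells carry an ER:RAS fusion that 4-hydroxytamoxifen (4OHT) activates, inducing oncogene-induced senescence (OIS). The ER:RAS line was given 4OHT at 100 nM, or DMSO as the vehicle. Parental IMR90 cells were exposed for 24 h to the DNA-damaging drug bleomycin at 50 µg/ml, or to DMSO. After 7 days of culture, doxycycline at 1 µg/ml switched on a control shRNA, COPB2 shRNA 1 or COPB2 shRNA 2 in every culture, control groups included, and RNA was collected 72 h later, at day 10. COPB2 is a subunit of the COPI coat. Each of the 6 ER:RAS groups had 3 libraries and each of the 6 IMR90 groups had 4. The study calls the replicates of its knockdown in senescent cells independent experiments, and p-values measure the spread between these libraries. Bulk libraries hold the cells present at collection, and fewer cells of a kind cannot be told apart from less RNA per cell.

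As background, secreted and membrane proteins fold in the ER with the help of chaperones such as BiP (HSPA5) and GRP94 (HSP90B1), of lectins that read sugar chains, and of isomerases that form disulfide bonds. Proteins that fail to fold are recognised by lectins such as OS9, passed through a membrane complex around the ubiquitin ligase SYVN1 and degraded by the proteasome. When unfolded proteins accumulate, the sensors IRE1 (ERN1), PERK (EIF2AK3) and ATF6 start the UPR, in which the factors XBP1, ATF6 and ATF4 raise transcription of many of the genes described here. COPI vesicles return escaped ER proteins from the Golgi.

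Total counts ran from 13148194 to 23597310 per library, and the 40 genes together took 0.660% to 1.72% of them. COPB2 stood at 238 to 573 CPM (counts relative to the library size, scaled by trimmed mean of M-values, TMM) in libraries that carried the control shRNA and at 30.3 to 126 in those with a COPB2 shRNA. Of the fibroblast markers, COL1A1 had 18990 to 132357 counts, VIM 75141 to 225777 and THY1 6668 to 18494. LUM fell to 44 counts and DCN to 116 in their lowest libraries. The epithelial KRT5, CDH1 and EPCAM had at most 2, 18 and 32 counts. The endothelial PECAM1 and CDH5 had at most 46 and 49, and VWF 16 to 159. Among leukocyte markers CD3E and PTPRC had at most 7 and 36, whereas CD68 had 254 to 2206. Some libraries stood apart. In their deviations from the group means, 13 of 18 ER:RAS and 16 of 24 IMR90 libraries correlated best with those of their own replicate number. The exceptions held the control shRNA replicates 1 and 2 of ER:RAS cells, with DMSO and in OIS, and every replicate 2 of IMR90 cells. In all 6 ER:RAS groups replicate 3 was the highest for 15 of the 40 genes. In bleomycin-treated cells replicate 4 was the highest of its group with all 3 shRNAs for 14 of the 40 genes. Neither count was set against all genes, so neither is read as particular to the 40.

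The genes differed in level by several orders of magnitude. Per kilobase of GENCODE transcript and in ER:RAS cells with DMSO and the control shRNA, the lectin chaperone CALR was highest at 1024 CPM per kilobase, followed by the disulfide isomerase P4HB at 539, HSP90B1 at 289.7 and HSPA5 at 231. The sensor ERN1 (0.748), the oxidase ERO1B (0.791) and DERL3 (0.0905) were at the low end. FKBP2, a prolyl isomerase, had 0 to 2 counts in every library and was not tested, while the overlapping locus LOC114841035 had 3 to 30 counts. EDEM2, a mannosidase-like protein of ERAD, had 5 to 45 counts and shares its locus with the read-through transcript MMP24-AS1-EDEM2 (11 to 38 counts), so its level is uncertain. DERL3 (0 to 63 counts) overlaps SMARCB1 (1083 to 3236 counts), and TXNDC5 (113 to 418) overlaps BLOC1S5-TXNDC5 (0 to 1). The other 39 genes all passed the filter on low counts in both cell lines.

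**Figure D1:**
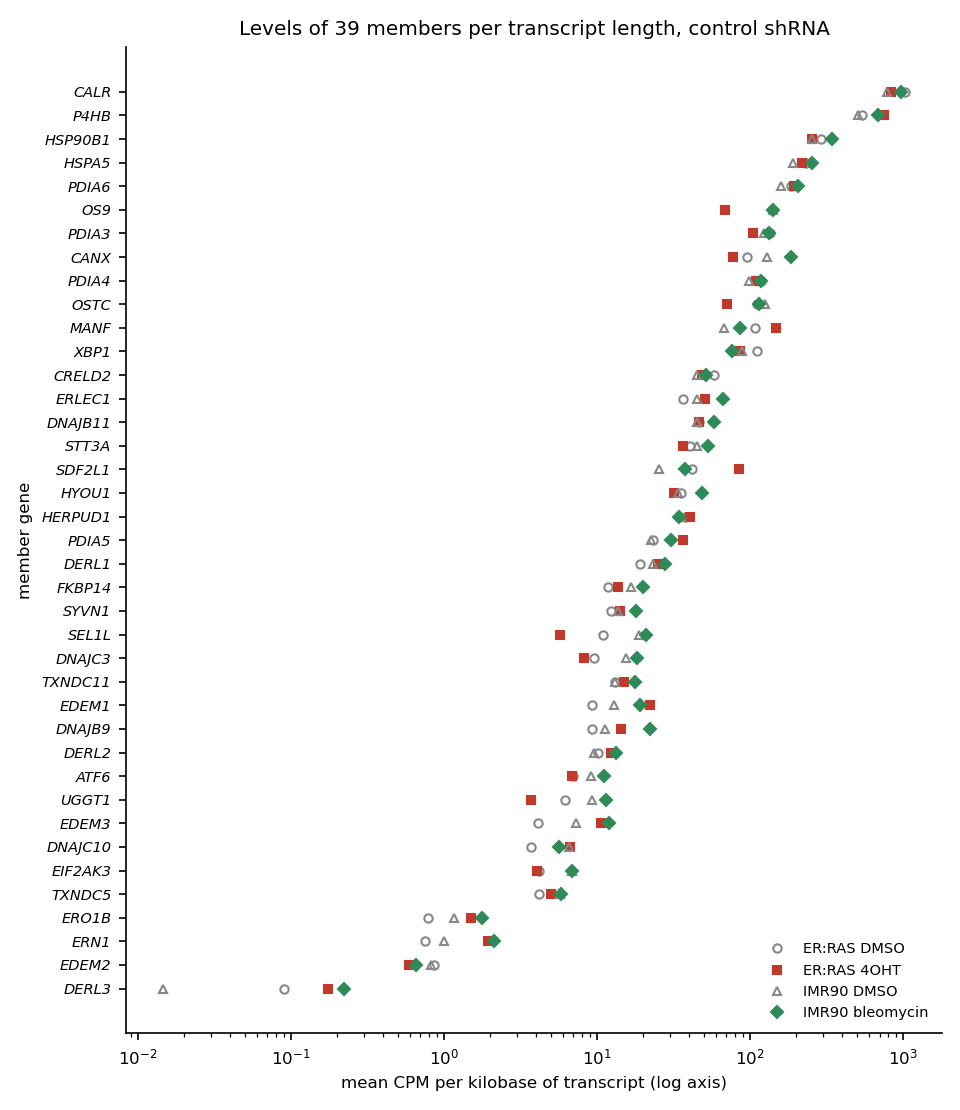
Mean CPM per kilobase of transcript (log axis) of the 39 tested genes in the 4 groups with the control shRNA, ordered by their median. CALR (1024 in ER:RAS cells with DMSO) and DERL3 (0.0905) mark the ends of the range.

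ATF6 and XBP1 act through ER stress elements in promoters. In RefSeq promoter windows (GRCh38.p14, 250 bases before to 50 after each start, both strands), the ER stress element ERSE (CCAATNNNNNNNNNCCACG) was present in 8 of the 36 genes with an entry (22.2%) and in 0.0916% of all 27305 genes. ERSE-II (ATTGGNCCACG) was found in 3 of 36 (8.33%, 0.0696% of all genes) and the UPR element UPRE (TGACGTGG) in 4 of 36 (11.1%, 0.927% of all genes). Any of these stood in 14 of 36 (38.9%), against 1.08% of all genes. The genes with an ERSE were HSPA5, HSP90B1, CRELD2, CALR, CANX, PDIA6, ERO1B and XBP1. ERSE-II was found in HYOU1, SDF2L1 and HERPUD1, and UPRE in HYOU1, DNAJC10, TXNDC5 and TXNDC11, where the UPRE of HYOU1 overlaps an ERSE-II. A match is a run of letters and not evidence of binding, and PDIA3, FKBP14, DERL1 and DERL3 had no entry.

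The promoter stretches of 5 genes are shown because their transcripts carry the comparisons below. HSPA5 and HERPUD1 passed the knockdown test in OIS, and SDF2L1 and HYOU1 are co-chaperones with an ERSE-II. XBP1 carries an ERSE and passed no test of the main fit defined below. Each stretch is written 5′ to 3′ on the strand of its gene, from RefSeq on GRCh38.p14, with the motifs in capitals. The stretches are chr9:125241344-125241593 (minus strand) for HSPA5, chr16:56931892-56932141 (plus strand) for HERPUD1, chr22:21642094-21642144 (plus strand) for SDF2L1, chr11:119057254-119057413 (minus strand) for HYOU1 and chr22:28800583-28800641 (minus strand) for XBP1.
HSPA5: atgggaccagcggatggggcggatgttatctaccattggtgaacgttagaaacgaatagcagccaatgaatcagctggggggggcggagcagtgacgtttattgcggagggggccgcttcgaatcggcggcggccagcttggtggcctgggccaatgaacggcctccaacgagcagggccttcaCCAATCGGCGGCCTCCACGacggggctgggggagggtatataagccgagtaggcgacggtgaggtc
HERPUD1: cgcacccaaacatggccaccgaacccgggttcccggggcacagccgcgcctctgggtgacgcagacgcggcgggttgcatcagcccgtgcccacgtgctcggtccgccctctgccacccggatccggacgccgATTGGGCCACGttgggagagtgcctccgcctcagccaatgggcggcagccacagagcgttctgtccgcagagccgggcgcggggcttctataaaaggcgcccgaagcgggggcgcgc
SDF2L1: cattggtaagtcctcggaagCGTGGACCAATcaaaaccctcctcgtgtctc
HYOU1: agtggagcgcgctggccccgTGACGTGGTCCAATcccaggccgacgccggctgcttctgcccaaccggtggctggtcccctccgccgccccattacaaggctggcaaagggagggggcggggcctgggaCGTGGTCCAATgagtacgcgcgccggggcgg
XBP1: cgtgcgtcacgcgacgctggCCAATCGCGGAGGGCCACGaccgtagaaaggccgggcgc
In HERPUD1 the ERSE-II reads along the gene. In SDF2L1 it is read on the opposite strand. HYOU1 holds 2 copies of ERSE-II, both on the opposite strand.

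**Figure D2:**
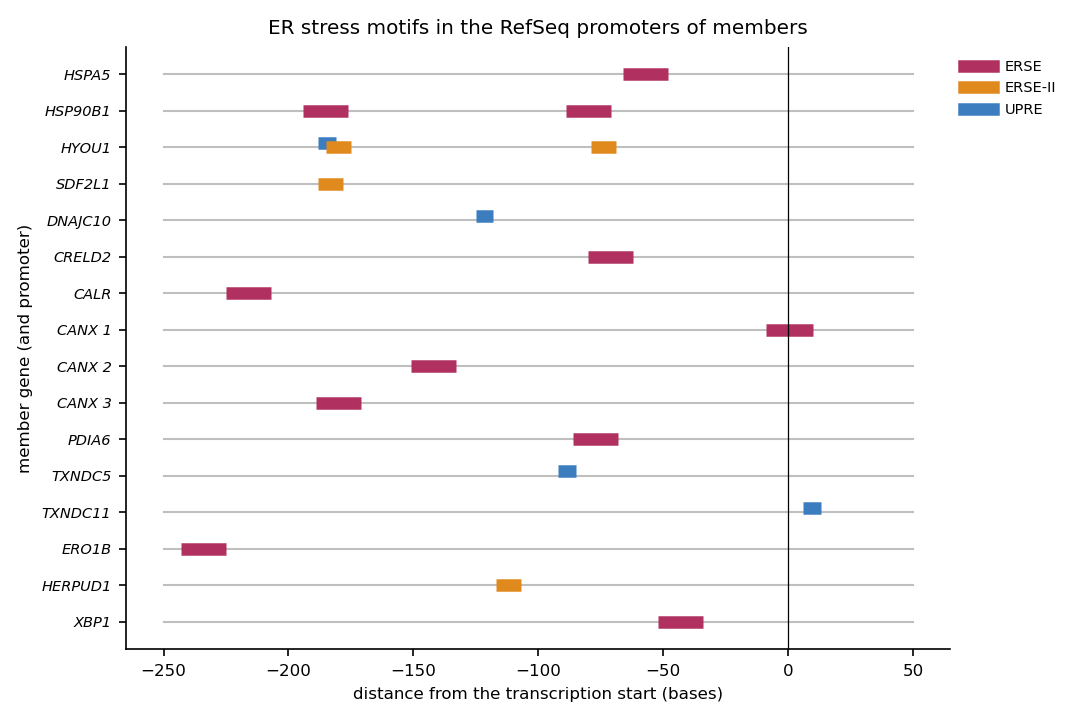
Positions of ERSE, ERSE-II and UPRE matches in the RefSeq promoters of the 14 genes that hold one, as distance from the transcription start in bases, and the 3 CANX promoters on lines of their own. HSP90B1 and HYOU1 each hold more than 1 match.

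The first question was what senescence does to these genes, with each shRNA in place. In OIS with the control shRNA, 3 of 39 tested genes were higher (SDF2L1, PDIA5 and ERN1) and 1 was lower (OS9) by edgeR's quasi-likelihood test with Benjamini-Hochberg adjustment, where 15.5% of all 14297 genes tested were higher and 20.2% lower. The median log2 fold change was 0.07 against -0.08 over all genes. With COPB2 shRNA 1, 13 were higher and 1 lower (15.4% and 21.5% of all genes), and with shRNA 2 also 13 and 1 (14.9% and 22% of all genes). The medians were 0.58 and 0.60, against -0.12 and -0.09 over all genes. The 14 genes were the same with both shRNAs: HSPA5, SDF2L1, MANF, PDIA4, PDIA5, P4HB, TXNDC11, HERPUD1, EDEM1, DERL1, DERL2, DERL3 and ERN1 rose and OS9 fell. Of them HSPA5, SDF2L1, MANF, HERPUD1, DERL1, DERL3, OS9 and ERN1 passed with both shRNAs whichever 1 library was left out. With the replicate number as a block, which paired the libraries of both these contrasts, 19 were higher and 3 lower with shRNA 1 (23.4% and 29.9% of all genes) and 23 higher and 2 lower with shRNA 2 (23.4% and 29.7%). The block added HSP90B1, DNAJB9, DNAJB11, DNAJC10, ERO1B and ERLEC1 as higher and EDEM2 as lower with both shRNAs. It added UGGT1 as lower with shRNA 1, and PDIA6, EDEM3, ATF6 and EIF2AK3 as higher with shRNA 2. Size factors from DESeq2 moved the all-gene median of the control-shRNA contrast from -0.08 to 0.04, so single changes are read against a shift of that size.

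In bleomycin-treated IMR90 cells every call was upwards. With the control shRNA, 7 of 39 genes were higher (DNAJB9, CANX, TXNDC11, EDEM1, DERL2, DERL3 and ERN1) and 0 lower, against 15.4% and 15.8% of 14783 genes. With COPB2 shRNA 1, 19 were higher (17.4% of all genes higher, 17.8% lower), and with shRNA 2 also 19 (21.7% and 18.3%), with 0 lower in each. Of these, 15 were shared by both COPB2 shRNAs. The median log2 fold change was 0.35, 0.51 and 0.60 with control shRNA, shRNA 1 and shRNA 2, where the all-gene medians were -0.01, 0.01 and 0.01. Without replicate 4 of the bleomycin groups the counts were 4, 11 and 18, where 4606, 4859 and 5973 of all 14843 genes tested were called. This alternative was chosen after seeing the data. The genes lost were DNAJB9, CANX and EDEM1 with the control shRNA, HYOU1, MANF, UGGT1, PDIA5, SYVN1, DERL1, ERLEC1 and ATF6 with shRNA 1, and DNAJB11 and CALR with shRNA 2, where PDIA4 was added. ERN1 was higher in all 6 senescence contrasts, and HSPA5, SDF2L1, MANF, PDIA5, TXNDC11, EDEM1, DERL1, DERL2, DERL3 and ERN1 in all 4 with a COPB2 shRNA. For this and the other overlaps between contrasts the share of all genes is not given. The overlaps are therefore not read as particular to these genes. In the main fit (edgeR with TMM scaling and no block), 15 genes were called in none of the 6, among them HSP90B1, XBP1 and the untested FKBP2.

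**Figure D3:**
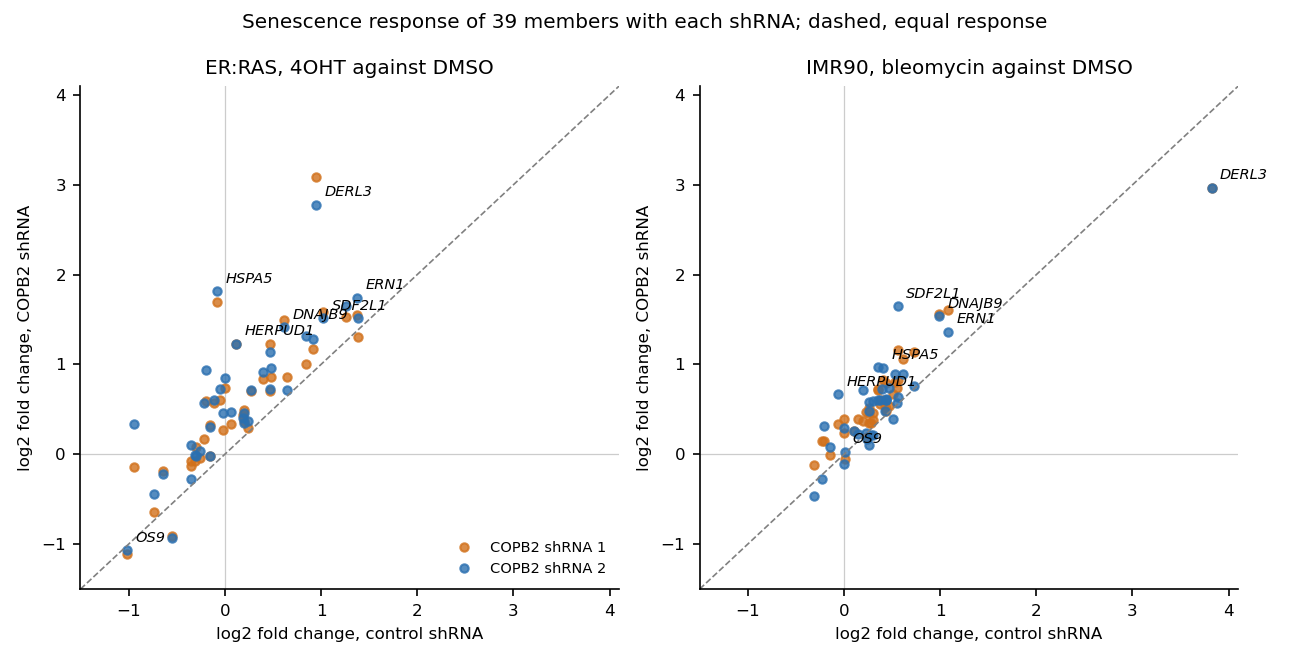
Log2 fold change of senescent against DMSO-treated cells with a COPB2 shRNA (vertical) against the same with the control shRNA (horizontal), for 39 genes in each model. Labels sit at the COPB2 shRNA 2 points; HSPA5 in OIS lies at -0.08 with the control shRNA and 1.82 with shRNA 2, and the bleomycin value of DERL3 with the control shRNA rests on 3 counts in the DMSO group.

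The second question was what COPB2 depletion itself does in each cell state. In DMSO-treated cells 0 of 39 genes were called with either shRNA by the edgeR quasi-likelihood test, where 0.00699% of all genes in ER:RAS and 0.00676% in IMR90 cells were called, with each shRNA in each line. At an unadjusted p under 0.05 the counts were 0 and 1 in ER:RAS cells (0.811% and 0.930% of all genes) and 0 and 2 in IMR90 cells (1.12% and 1.12%), and the DESeq2 Wald test called 0. In OIS, HERPUD1 was called with shRNA 1 (0.14% of all genes called), and HSPA5, HERPUD1 and DERL3 with shRNA 2 (0.224%), all higher. These calls rest on the spread over all 6 groups of the line, and a fit restricted to the libraries of each comparison called 0, with 0% of all genes called. In bleomycin-treated cells 0 genes were called with shRNA 1 (0.00676% of all genes, 4 at an unadjusted p under 0.05, where 1.41% of all genes were, and 0 by the Wald test) and HERPUD1 with shRNA 2 (0.0744%), a call also lost in the restricted fit. The contrasts of both shRNAs share the control libraries. In OIS, 35 and 36 of 39 genes had a positive log2 fold change, where 40.3% and 38.5% of all genes did, with medians of 0.35 and 0.39 against -0.07 and -0.08. In bleomycin-treated cells 36 and 33 were positive (52.4% and 51.4% of all genes), with medians of 0.23 and 0.22 against 0.01 and 0.01.

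**Figure D4:**
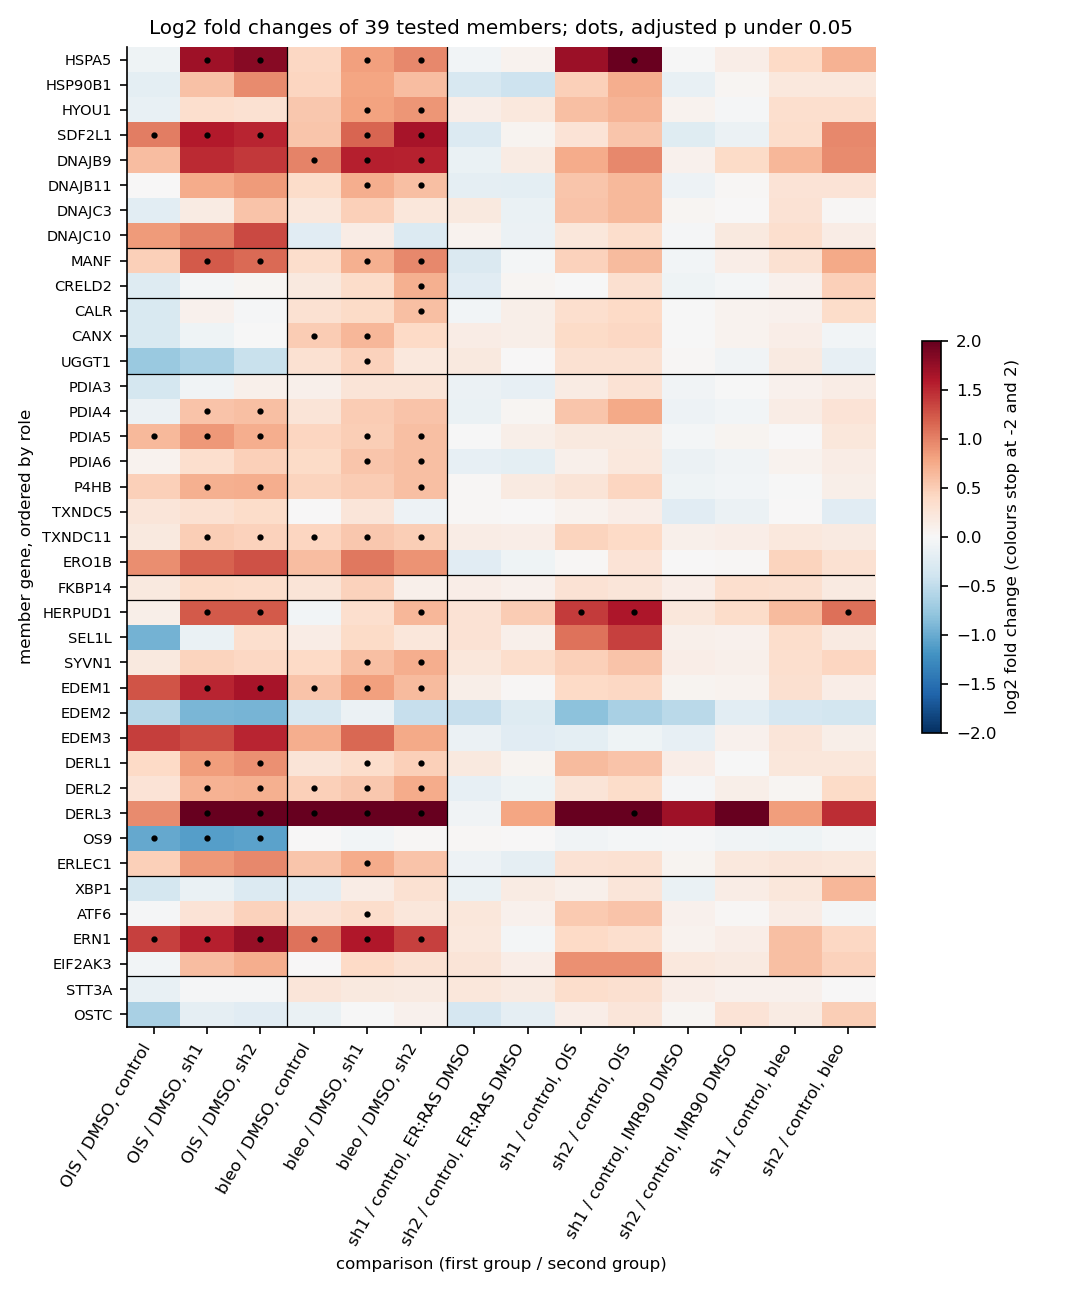
Log2 fold changes of 39 genes (rows, by role, lines between roles) in 6 senescence and 8 knockdown contrasts, where sh1 and sh2 are COPB2 shRNA 1 and 2 and bleo is bleomycin. Dots mark an adjusted p under 0.05. The columns of knockdown in DMSO hold no dots, and HERPUD1 has dots in 3 of the 4 knockdown columns of senescent cells.

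The test of the difference itself, the knockdown effect in senescent minus that in DMSO-treated cells, called 0 of 39 genes with either shRNA in either model (0% of all genes in all 4 contrasts, edgeR quasi-likelihood test). At an unadjusted p under 0.05 the counts were 5 and 5 in ER:RAS cells (1.36% and 1.84% of all genes) and 0 and 2 in IMR90 cells (0.819% and 1.93%), all higher, and the Wald test called 0. In OIS these 5 were HSPA5, MANF, PDIA4, HERPUD1 and DERL3 with both shRNAs. In this fit a difference between cell states was therefore not called for any of them. With shRNA 2 against shRNA 1, 0 genes were called in any of the 4 states (0% of all genes in each, 0, 0, 0 and 3 at an unadjusted p under 0.05, where 0.539%, 0.546%, 1.39% and 6.94% of all genes were, and 0 by the Wald test). The share of 3 in 39 is near that of all genes. The 3 in bleomycin-treated cells were HERPUD1 (0.47, 95% interval 0.15 to 0.79), DERL2 and XBP1, higher with shRNA 2.

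HSPA5, the BiP chaperone that binds unfolded proteins and holds the UPR sensors inactive (chromosome 9, 125234853 to 125241343, GRCh38.p14, as all positions here), was among the genes that moved most with COPB2 depletion in OIS. With DMSO its level was 831, 785 and 1106 CPM in the 3 ER:RAS libraries with the control shRNA. In OIS it was 967, 495 and 1116 with the control shRNA, 2202, 2145 and 4119 under shRNA 1 and 2581, 2727 and 4829 under shRNA 2. All 6 OIS libraries with a COPB2 shRNA were above all 3 with the control shRNA, and replicate 3 was the highest in each group. The log2 fold change of knockdown in OIS was 1.72 (adjusted p 0.0954, SE 0.35) with shRNA 1 and 1.98 (adjusted p 0.0281, SE 0.36) with shRNA 2, so only the second was called. That call was lost in 4 of the 6 fits without 1 library (control replicates 1 and 2, shRNA 2 replicates 2 and 3), with adjusted p up to 0.136 without replicate 3 of shRNA 2, and in the fit restricted to the libraries compared (0.573). OIS against DMSO gave -0.08 (adjusted p 0.893, SE 0.34) with the control shRNA, 1.69 (adjusted p 0.00133, SE 0.35) under shRNA 1 and 1.82 (adjusted p 0.000797, SE 0.35) under shRNA 2. The difference of the knockdown effect was 1.77 (95% interval 0.73 to 2.81, unadjusted p 0.00246) and 1.90 (0.86 to 2.94, unadjusted p 0.00146), with adjusted p of 1 and 0.870.

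In bleomycin-treated IMR90 cells HSPA5 stood at 859, 1064, 840.4 and 1223 CPM with the control shRNA, 1048, 1225, 1077 and 1934 under shRNA 1 and 1324, 1502, 1776 and 1852 under shRNA 2, against 788, 708, 873 and 636 with DMSO and the control shRNA. The 4 shRNA 2 libraries lay above the 4 control libraries. Bleomycin against DMSO gave 0.41 (adjusted p 0.116, SE 0.19) with the control shRNA, 0.83 (adjusted p 0.00193, SE 0.19) under shRNA 1 and 0.96 (adjusted p 0.000459, SE 0.19) under shRNA 2, and knockdown in bleomycin-treated cells 0.41 (adjusted p 1, SE 0.19) and 0.69 (adjusted p 0.407, SE 0.19), neither called. In DMSO-treated IMR90 cells the values were 828, 677, 811 and 666 under shRNA 1 and 871, 752, 1001 and 685 under shRNA 2, overlapping the control libraries, with log2 fold changes of -0.01 and 0.14 (95% intervals -0.41 to 0.39 and -0.26 to 0.54).

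**Figure D5:**
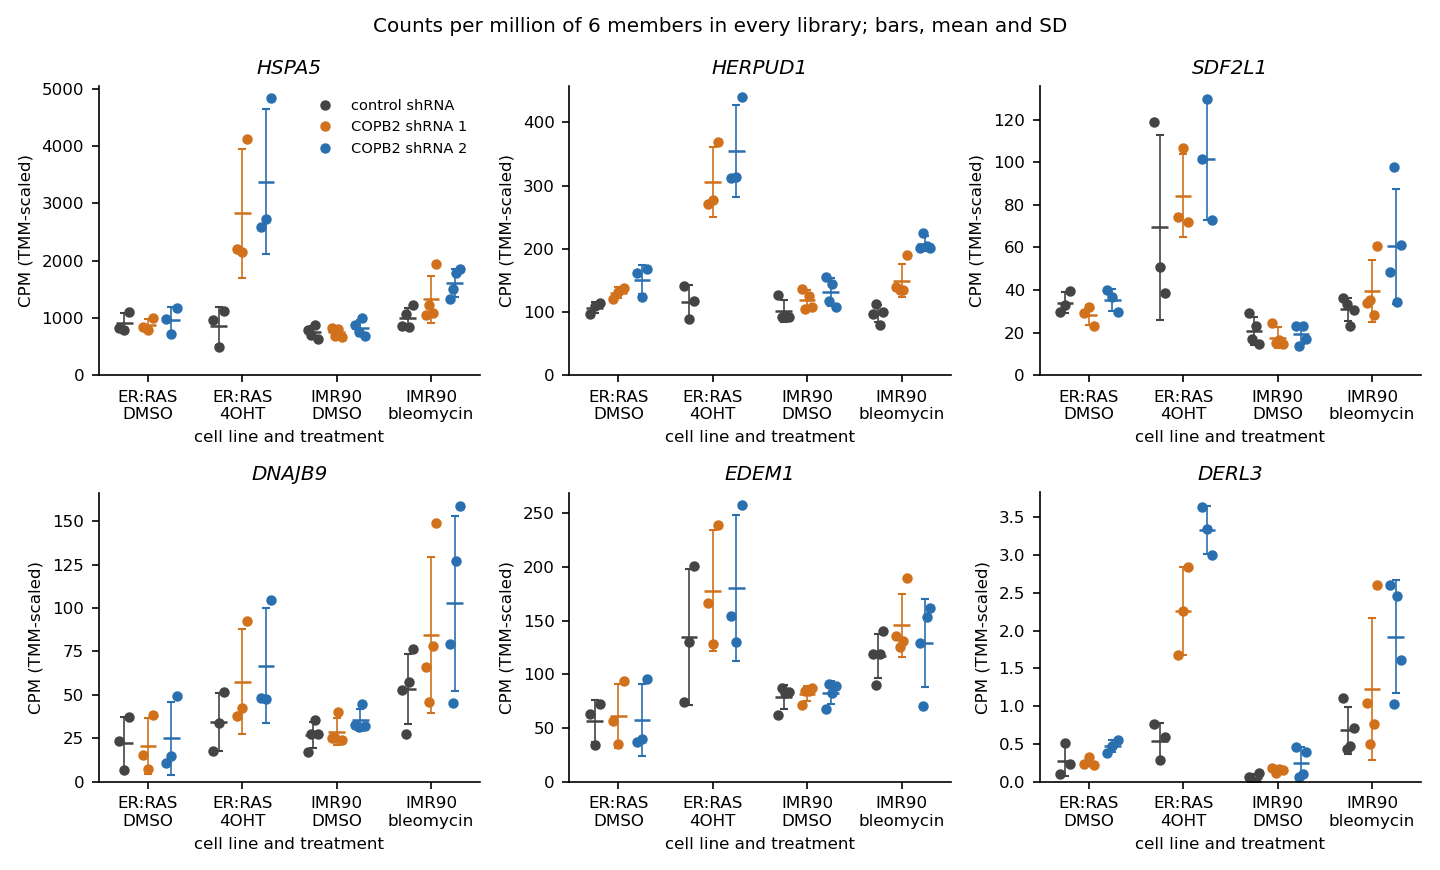
CPM of HSPA5, HERPUD1, SDF2L1, DNAJB9, EDEM1 and DERL3 in each of the 42 libraries by cell line, treatment and shRNA (points), with mean and SD. HSPA5 and HERPUD1 lie highest in OIS with a COPB2 shRNA, where all 6 libraries are above the 3 with the control shRNA.

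Among the partners of BiP, SDF2L1, a stress-inducible component of its complexes (chromosome 22, 21642302 to 21644299), was at 29.9, 33.1 and 39.4 CPM in ER:RAS cells with DMSO and the control shRNA and at 119, 50.6 and 38.6 in OIS. Replicate 1 of OIS was far above the others. OIS against DMSO gave 1.02 (adjusted p 0.0317, SE 0.35) with the control shRNA, and the call was lost without that library, where the adjusted p was 0.284. With shRNA 1 the OIS libraries had 74.2, 107 and 71.8 CPM and with shRNA 2 102, 129.9 and 73.0, giving 1.58 (adjusted p 0.00224, SE 0.35) and 1.52 (adjusted p 0.00309, SE 0.35) against DMSO. The OIS groups overlap, and knockdown in OIS was 0.28 (95% interval -0.45 to 1.01) and 0.55 (-0.19 to 1.29).

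In bleomycin-treated cells SDF2L1 had 36.1, 33.6, 23.3 and 30.7 CPM under the control shRNA, 34.1, 35.4, 28.2 and 60.6 under shRNA 1 and 48.6, 97.6, 34.4 and 61.3 under shRNA 2. The rise over DMSO was 1.16 (adjusted p 0.00421, SE 0.30) with shRNA 1 and 1.65 (adjusted p 0.000184, SE 0.30) with shRNA 2, and 0.56 (adjusted p 0.166) with the control shRNA. DNAJB9, a co-chaperone that restrains IRE1 (chromosome 7, 108569874 to 108574850), was at 17.2, 27.4, 35.7 and 27.6 CPM with DMSO and 52.6, 27.3, 57.6 and 76.5 with bleomycin and the control shRNA, a log2 fold change of 0.99 (adjusted p 0.0452, SE 0.37). With shRNA 1 the bleomycin libraries held 65.9, 45.6, 78.3 and 149 CPM, and with shRNA 2 79.3, 45.5, 127 and 159, and the change over DMSO was 1.56 (adjusted p 0.00225, SE 0.37) and 1.54 (adjusted p 0.00228, SE 0.37). Its control-shRNA call was lost in 6 of the 8 fits without 1 library. In ER:RAS cells its libraries ran from 6.71 to 49.1 CPM with DMSO and from 17.8 to 105 in OIS. It was called there with the block, with shRNA 1 (1.64, adjusted p 0.00249) and shRNA 2 (1.59, 0.00307).

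HSP90B1, the ER form of HSP90 (chromosome 12, 103930410 to 103947926), was called in no contrast of the main fit. A GC content and length correction alone called HSP90B1 in OIS with shRNA 2 and with bleomycin and either COPB2 shRNA. With the block it was higher in OIS with shRNA 1 (0.58, adjusted p 0.0118) and shRNA 2 (1.01, 0.000190). Its ER:RAS libraries with DMSO and the control shRNA had 620.1, 425 and 1372 CPM, and those in OIS 552, 455 and 1100.1 with the control shRNA, 592, 735 and 1598 under shRNA 1 and 749, 942 and 1803 under shRNA 2. Replicate 3 was the highest in all 6 ER:RAS groups for HSP90B1, HSPA5, DNAJB9, EDEM1 and ERO1B. In IMR90 cells HSP90B1 ran from 442 to 1038 CPM with DMSO and from 603 to 1881 with bleomycin, with replicate 4 highest in each bleomycin group. Bleomycin against DMSO with shRNA 1 gave 0.79 (adjusted p 0.0961). HYOU1, the nucleotide exchange factor of BiP, rose in bleomycin-treated cells with shRNA 1 (0.81, adjusted p 0.0128) and shRNA 2 (0.89, 0.00618). DNAJB11, another BiP co-chaperone, rose there as well (0.73 and 0.61), with the second call lost without replicate 4 (adjusted p 0.0562), and in OIS with the block (0.79 and 0.89). DNAJC3, an inhibitor of PERK, ran from -0.22 to 0.57 over the 6 senescence contrasts, and DNAJC10, a disulfide reductase, from -0.28 to 1.31. DNAJC3 was not called in the main fit, but was with the GC content and length correction, with bleomycin and either COPB2 shRNA. DNAJC10 was called in OIS with the block, with adjusted p of 0.0278 and 0.00587.

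Of the secreted stress-response proteins, MANF rose in OIS with both COPB2 shRNAs. With shRNA 1 it was at 77.3, 82.3 and 79.3 CPM with DMSO and 169, 182 and 207 in OIS, a log2 fold change of 1.22 (adjusted p 0.000341, SE 0.22). With shRNA 2 it was at 105, 77.1 and 101 CPM with DMSO and 212, 198 and 214 in OIS, a change of 1.14 (adjusted p 0.000614, SE 0.21), and neither pair of groups overlapped. With the control shRNA it was 179.9, 104 and 120.2 in OIS and 0.47 (adjusted p 0.0991) against DMSO. In bleomycin-treated cells it had 74.4, 73.7, 69.2 and 170.4 CPM with shRNA 1, where replicate 4 alone stands above the rest, and the log2 fold change over DMSO was 0.71 (adjusted p 0.0364, SE 0.26), a call lost without replicate 4. With shRNA 2 it was 0.97 (adjusted p 0.00525, SE 0.26). CRELD2 was called with shRNA 2 in bleomycin-treated cells (0.72, adjusted p 0.0194), a call lost with the GC content and length correction and in the restricted fit.

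In the calnexin cycle, which holds glycoproteins until they are folded, CALR was called with shRNA 2 in bleomycin-treated cells (0.60, adjusted p 0.0283) and CANX, the membrane-bound lectin, with the control shRNA (0.51, 0.0283) and shRNA 1 (0.67, 0.00474). The calls of CALR and of CANX with the control shRNA were lost without replicate 4 (adjusted p 0.0577 and 0.0601). UGGT1, the folding sensor that reglucosylates proteins, was called with shRNA 1 (0.46, 0.0498), also lost without replicate 4. In OIS none of the 3 was called in the main fit, and UGGT1 stood at -0.74, -0.64 and -0.44 with the control shRNA, shRNA 1 and shRNA 2. The GC content and length correction alone called CALR and UGGT1 lower in OIS with the control shRNA. The block called UGGT1 lower there and with shRNA 1.

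Of the 8 disulfide isomerases and the oxidase, 4 rose in OIS with both COPB2 shRNAs. These were PDIA4 (0.58 and 0.60), PDIA5 (0.86 and 0.72), P4HB (0.71 and 0.73) and TXNDC11 (0.49 and 0.46). The calls of P4HB were lost in 4 of the 6 fits without 1 library with shRNA 1 and in 3 of 6 with shRNA 2, and those of TXNDC11 in 2 and 3. PDIA5 also rose with the control shRNA, by 0.65 (adjusted p 0.0232, SE 0.21), a call lost without replicate 1 of either group. With bleomycin PDIA5, PDIA6 and TXNDC11 were called with both COPB2 shRNAs, P4HB with shRNA 2 and TXNDC11 also with the control shRNA (0.43, adjusted p 0.0120). PDIA3, which works with the calnexin cycle, and TXNDC5 were called in no contrast of the main fit. The block called PDIA3 lower in OIS with the control shRNA. Knockdown of COPB2 in OIS gave 0.55 and 0.76 for PDIA4 (adjusted p 0.771 and 0.131).

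ERO1B, which oxidises the isomerases (chromosome 1, 236215101 to 236281958), had 4.16, 1.13 and 6.56 CPM in ER:RAS cells with DMSO and the control shRNA and 2.05, 6.59 and 13.8 in OIS. Its groups overlapped widely, and it was called in OIS with the block, with adjusted p of 0.0329 and 0.0247 under shRNA 1 and 2. In bleomycin-treated cells it had 9.79, 3.69, 10.9 and 11.1 CPM with the control shRNA and 9.66, 6.43, 12.3 and 19.8 with shRNA 1, where bleomycin against DMSO gave 1.06 (SE 0.41, adjusted p 0.0515). ERO1B was called in that contrast with DESeq2 size factors, the block, the GC content and length correction, the restricted fit and the Wald test. The prolyl isomerase FKBP14 was called in no contrast of the main fit, with log2 fold changes of 0.11 to 0.46 over the 6 senescence contrasts. The GC content and length correction called it with bleomycin and each shRNA.

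Among the ERAD genes HERPUD1, a membrane protein that organises the ligase complex (chromosome 16, 56932142 to 56944864), was the one gene called in 3 knockdown contrasts. In ER:RAS cells with DMSO it was at 97.1, 109 and 114 CPM with the control shRNA, 121, 132 and 138 under shRNA 1 and 161, 124 and 168 under shRNA 2. In OIS it was at 142, 89.1 and 117 CPM under the control shRNA, 270.2, 277 and 369 under shRNA 1 and 311, 313 and 439.6 under shRNA 2. All 6 libraries with a COPB2 shRNA in OIS were above those with the control shRNA, and in DMSO the 3 control libraries were also the lowest. Knockdown gave 1.40 (adjusted p 0.00864, SE 0.21) and 1.61 (adjusted p 0.00268, SE 0.21) in OIS. The first call was lost in 3 of the 6 fits without 1 library (control replicates 2 and 3, shRNA 1 replicate 3), with adjusted p up to 0.0896, and the second was lost in none (at most 0.0268). Both were lost in the restricted fit (adjusted p 0.659 and 0.257). In DMSO the values were 0.29 (95% interval -0.15 to 0.73) and 0.50 (0.06 to 0.95), not called.

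In IMR90 cells HERPUD1 had 128, 91.4, 94.4 and 92.1 CPM with DMSO and the control shRNA. With bleomycin it had 96.7, 112, 79.7 and 99.7 with the control shRNA, 140.0, 135, 135 and 189.6 under shRNA 1 and 201, 225, 204 and 201 under shRNA 2. Every shRNA 2 library lay above every control library and above the shRNA 1 libraries. Knockdown with shRNA 2 gave 1.10 (adjusted p 0.00241, SE 0.16), or an adjusted p of 0.286 in the restricted fit, and with shRNA 1 0.63 (adjusted p 1, SE 0.15). The change of bleomycin against DMSO was -0.06 (adjusted p 0.809, SE 0.15) with the control shRNA, 0.33 (adjusted p 0.0965, SE 0.15) under shRNA 1 and 0.67 (adjusted p 0.00159, SE 0.15) under shRNA 2.

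DERL3, a derlin that helps to move proteins out of the ER (chromosome 22, 23834503 to 23839006), was near the detection limit and shares its locus with SMARCB1. It had 0.760, 0.287 and 0.585 CPM in OIS with the control shRNA, 1.68, 2.27 and 2.85 under shRNA 1 and 3.64, 3.35 and 3.00 under shRNA 2, without overlap. Over the summed counts of 25, 122 and 178, knockdown in OIS was 4.35 times (2.81 to 6.99, counting error only) with shRNA 1 and 6.31 times (4.14 to 10.0) with shRNA 2. The fit gave 2.07 (adjusted p 0.0986, SE 0.43) and 2.62 (adjusted p 0.0141, SE 0.43), and the second was lost in 3 of the 6 fits without 1 library (control replicates 2 and 3, shRNA 2 replicate 2), with adjusted p up to 0.128, and in the restricted fit (0.232). In IMR90 cells with DMSO and the control shRNA the libraries held 0.0641, 0, 0 and 0.117 CPM, 3 counts in all, so the ratio of bleomycin to DMSO is 16.6 with an interval of 5.36 to 83.4. With shRNA 1 and 2 that ratio was 8.34 (4.55 to 16.7) and 8.29 (4.99 to 14.6). In the fit, the difference between both models of senescence with the control shRNA was -2.79 (adjusted p 0.0434, SE 1.00), a call lost in 9 of the 14 fits without 1 library.

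OS9, a lectin that delivers glycoproteins to the ligase (chromosome 12, 57694132 to 57721557), fell in OIS with each of the 3 shRNAs and was called with none of them in bleomycin-treated cells. It was at 355, 431 and 326 CPM with DMSO and 263, 134 and 153 in OIS with the control shRNA, without overlap, -1.02 (adjusted p 0.00577, SE 0.26), and -1.10 (adjusted p 0.00308, SE 0.26) and -1.06 (adjusted p 0.00403, SE 0.26) with shRNA 1 and 2. Without replicate 2 of OIS the control-shRNA call was lost (adjusted p 0.0652), and in the restricted fit (0.0789). With bleomycin it was at 362, 441, 328 and 379 CPM and 0.01 against DMSO. The response in OIS minus that in bleomycin-treated cells was -0.95 (adjusted p 0.0180, SE 0.29), lost in 3 of the 14 fits without 1 library and, like that of DERL3, in the restricted fit. This contrast called 0 genes higher and 2 lower, OS9 and DERL3, where 8.14% of 15299 genes were higher and 12.1% lower. The model and the cell line cannot be told apart in it.

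Of the other ERAD genes, EDEM1, which extracts misfolded glycoproteins (chromosome 3, 5187707 to 5219958), was at 63.4, 34.1 and 72.0 CPM with DMSO and 74.2, 129.8 and 201 in OIS with the control shRNA, where the groups did not overlap and the log2 fold change was 1.26 (adjusted p 0.0553, SE 0.48). That rise was called with DESeq2 size factors, without the filter, with the block, with the GC content and length correction and by the Wald test. The OIS libraries held 166, 128 and 239 CPM under shRNA 1 and 154, 129.9 and 258 under shRNA 2. The changes over DMSO were 1.53 (adjusted p 0.0216, SE 0.49) and 1.65 (adjusted p 0.0147, SE 0.49), and these calls were lost in 3 and 1 of the 6 fits without 1 library. With bleomycin it was at 118, 89.9, 119 and 140.2 CPM with the control shRNA, 0.57 (adjusted p 0.0373, SE 0.20), a call lost without replicate 4. EDEM3 had the largest SE of the 39 genes in the OIS contrast with the control shRNA (1.38, SE 1.12) and no call, and was higher with shRNA 2 and the block (adjusted p 0.0176). EDEM2 was lower in OIS with the block (-0.95 and -0.90). DERL1 and DERL2, the other derlins, rose in both models with both COPB2 shRNAs, by 0.35 to 0.92 and 0.54 to 0.74. With the GC content and length correction DERL2 lost its calls in OIS with shRNA 1 and 2 (adjusted p 0.144 and 0.315) and with bleomycin and the control shRNA or shRNA 1 (0.157 and 0.176). The ligase SYVN1 rose with bleomycin and either COPB2 shRNA (0.60 and 0.73). Its partner SEL1L was not called in the main fit, with 1.08 (95% interval -0.26 to 2.43) and 1.37 (0.02 to 2.72) for knockdown in OIS. For that knockdown the block called SEL1L with shRNA 2, and the GC content and length correction with both shRNAs. In OIS against DMSO with the control shRNA the block called SEL1L lower. The lectin ERLEC1 was called with shRNA 1 and bleomycin (0.74, adjusted p 0.0401), a call lost without replicate 4.

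Of the UPR sensors ERN1 (IRE1) rose in all 6 senescence contrasts. It was at 6.33, 5.64 and 5.76 CPM with DMSO and 9.12, 12.8 and 24.0 in OIS with the control shRNA, 1.37 (adjusted p 0.00919, SE 0.37), and at 6.93, 9.30, 7.42 and 7.91 with DMSO and 16.1, 14.3, 15.6 and 20.9 with bleomycin, 1.08 (adjusted p 0.00208, SE 0.25), without overlap in either. XBP1, whose mRNA IRE1 splices (chromosome 22, 28794560 to 28800569), was called in no contrast of the main fit. The GC content and length correction called XBP1 lower in OIS with the control shRNA. It had 232, 128 and 103 CPM in OIS with the control shRNA, 176, 198 and 121 under shRNA 1 and 185, 217 and 147 under shRNA 2, against 169, 217 and 205 with DMSO. With bleomycin it had 139.7, 143, 107 and 157 with the control shRNA and 222, 255, 163 and 226 with shRNA 2, which did not overlap, and knockdown gave 0.66 (adjusted p 0.494, SE 0.20). Gene counts do not separate its spliced form. ATF6 was called with shRNA 1 and bleomycin (0.35, adjusted p 0.0313), a call lost without replicate 4. EIF2AK3 (PERK) was called in OIS with shRNA 2 and the block (adjusted p 0.0225), and had 0.92 and 0.91 for knockdown in OIS. The oligosaccharyltransferase genes STT3A, its catalytic subunit, and OSTC were called in no contrast of the main fit. The GC content and length correction called OSTC lower in OIS with the control shRNA and with either COPB2 shRNA.

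Other genes of these pathways, from lists that leave the 40 out, were set beside the 40. With knockdown in OIS, 0 of 40 other ER folding genes, 0 of 36 other ERAD genes and 0 of 34 genes of the translocon, signal peptidase and oligosaccharyltransferase were called with either shRNA, with medians of -0.04 and 0.02, -0.06 and -0.03, and -0.02 and 0.06. Of 16 genes of the ATF4 and CHOP arm, 2 were higher with shRNA 1 and 3 with shRNA 2, with medians of 0.71 and 0.91. They were DDIT3 (CHOP, 2.49 and 2.59), ATF3 (1.65 and 1.81) and, with shRNA 2, ATF4 (1.25, adjusted p 0.0298). In bleomycin-treated cells shRNA 2 gave 3 of 16 higher (DDIT3, ATF4 and MTHFD2) and shRNA 1 gave 0. The other ER folding, other ERAD and translocon lists had 0 calls there. Their medians were 0.07, 0.01 and 0.10 with shRNA 1, and 0.20, 0.06 and 0.20 with shRNA 2. The 39 tested genes had 0.23 and 0.22. With shRNA 2, 35 of 40, 25 of 36 and 29 of 34 genes of the lists were positive, against 33 of the 39. With shRNA 2 a rise of this size was thus not particular to the 40 genes, as the folding and translocon lists shared it. The ERAD list had a lower median, and with shRNA 1 so did the folding, ERAD and translocon lists. The list of other UPR signalling had 0 calls in these knockdowns. Its medians with shRNA 1 and 2 were -0.11 and -0.07 in OIS and -0.02 and 0.07 with bleomycin. In OIS with the control shRNA, where 15.5% of all genes were higher and 20.2% lower, 9 of the other ER folding genes were higher and 6 lower. The counts were 2 and 2 for the other ERAD genes, 5 and 1 for the translocon list, 5 and 2 for the ATF4 and CHOP arm, and 1 and 4 for the 14 tested genes of other UPR signalling. With bleomycin, where 15.4% of all genes were higher and 15.8% lower, 7 of the other ER folding genes were higher and 5 lower, and the counts were 8 and 0 for the other ERAD genes, 8 and 0 for the translocon list, 4 and 3 for the ATF4 and CHOP arm and 1 and 1 for other UPR signalling.

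Across the 39 genes the knockdown effect in OIS and that in bleomycin-treated cells, which share no library, correlated with Pearson's r of 0.740 and Spearman's rho of 0.620 with shRNA 1 and 0.711 and 0.474 with shRNA 2. Without DERL3 Pearson's r was 0.666 and 0.584. These are descriptions across genes, which are not independent replicates. As a share of all counts the 40 genes took 0.771% ± 0.147 (SD, n = 3) in OIS with the control shRNA, 1.26% ± 0.282 under shRNA 1 and 1.38% ± 0.296 under shRNA 2, where the lowest library with a COPB2 shRNA (1.08%) was above the highest control library (0.937%). With DMSO and the control shRNA the ER:RAS share was 0.952% ± 0.126. In bleomycin-treated cells the libraries overlapped, at 0.971% to 1.299% under the control shRNA, 1.02% to 1.58% under shRNA 1 and 1.05% to 1.52% under shRNA 2.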

How the data were processed

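Poly(A) RNA-seq gene counts of 42 libraries (28266 genes) were analysed as deposited: the authors aligned reads and counted them per gene, with no normalization. The study's methods name Tophat, HTSeq and hg19, whereas the submitters' processing notes list hg38, DRAGEN, STAR 2.7.8a and DESeq2 1.32.0, so the aligner and build behind the counts are uncertain. Genes with low counts were removed (edgeR filterByExpr), counts were scaled by TMM, and each cell line was fitted with edgeR 4.0.16's quasi-likelihood test (robust option, R 4.3.3) over its 6 groups, with Benjamini-Hochberg adjustment over all genes tested and a threshold of 0.05. Both cell lines were fitted together for the difference between the models. CPM values are TMM-scaled. Intervals are 95%, and those of count ratios cover counting error only. DESeq2 1.42.0 gave the Wald test and size factors. Total counts of 13148194 to 23597310 per library set the precision of low genes.

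The genes, lists and tests were chosen with earlier results of these data known. All 40 genes are named. Values per library are given for those called in a knockdown contrast and for HSPA5, HSP90B1, HERPUD1, SDF2L1, XBP1, DNAJB9, EDEM1 and ERO1B, and others for single comparisons. Genes of the other pathway lists are named where a knockdown contrast called them. Same-numbered libraries were taken as paired where every pair's deviations from the group means correlated above 0.1, which held for OIS against DMSO with COPB2 shRNA 1 (0.471 to 0.791) and shRNA 2 (0.534 to 0.798), for knockdown in bleomycin-treated cells (0.442 to 0.782 and 0.425 to 0.782) and in IMR90 cells with DMSO and shRNA 2 (0.178 to 0.727), and for shRNA 2 against shRNA 1, and not for OIS with the control shRNA (-0.614 to 0.588) or the others. Promoters and positions were taken from RefSeq (GRCh38.p14), matched by symbol, and the counts' own build was not used for any coordinate. Transcript lengths and GC content were taken from GENCODE. The scripts were tested on simulated counts. Alternatives were DESeq2 size factors, no filter, the replicate block, a GC content and length correction, a fit restricted to the libraries of each comparison, the Wald test, leaving out each library, and leaving out replicate 4 of all bleomycin groups, the last chosen after seeing the data.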

Additional observations from a re-analysis of the deposited data

Results flagged for a closer look

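Of 234 groups of 4 libraries examined over 39 genes, 20 had a library whose gap to its nearest neighbour exceeded Dixon's 95% limit as a share of the group's range, and chance gives about 1 in 20. With DMSO and the control shRNA, IMR90 replicate 1 was the highest for CALR (gap share 0.897), HERPUD1 (0.903) and OS9 (0.919) and the lowest for EDEM1 (0.844). With shRNA 1, replicate 1 was the highest for HYOU1 (0.845), CALR (0.883) and PDIA5 (0.955), replicate 2 for UGGT1 (0.874) and replicate 3 for DNAJB9 (0.903) and OSTC (0.880). With shRNA 2, replicate 3 was the highest for DNAJB9 (0.911), DNAJB11 (0.936) and OSTC (0.893), and replicate 1 for P4HB (0.886). In bleomycin-treated cells with the control shRNA, replicate 2 was the lowest for ERO1B (0.887) and replicate 3 for SYVN1 (0.838). With shRNA 1 replicate 4 was the highest for MANF (0.920) and HERPUD1 (0.884). With shRNA 2 replicate 2 was the highest for HERPUD1 (0.886) and the lowest for ERN1 (0.939).

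The responses to OIS and to bleomycin with the control shRNA differed for DERL3 by -2.79 on the log2 scale and for OS9 by -0.95, and the cell line cannot be told apart from the model.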

How the results depend on the processing

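Counts of the 40 genes called moved by over 1.5 times in these cases. Each is given with the share or number of all genes called under the same setting. The cause was not tested unless the setting removes libraries or genes. In OIS with the control shRNA the count was 4, and 7 with DESeq2 size factors (34.3% of all genes), 10 with the replicate block (50.9%), 13 with the GC content and length correction (53.7%), 18 with both (64.0%), 1 in a fit restricted to the groups compared (21.6%) and 7 by the DESeq2 Wald test (34.4%). With the control shRNA the block gave 6 higher and 4 lower, the correction 6 and 7, and both together 11 and 7. In OIS with COPB2 shRNA 1 and 2 the count was 14 each, and 22 and 25 with the block (53.2% and 53.1%). It was 31 and 31 with the block and the correction (65.6% and 65.7%), 27 higher and 4 lower with each shRNA. With bleomycin and the control shRNA it was 7, 4 without the filter (21.9%), 12 with the block (40.9%), 14 with the correction (47.0%), 18 with both (52.8%) and 11 by the Wald test (29.3%). Without replicate 4 of the bleomycin groups it was 4 (4606 of 14843 genes called). With shRNA 1 it was 19, and 11 without those libraries (4859 of 14843). With shRNA 2 it was 19, and 30 with the block and the correction (59.4%). Knockdown in OIS with shRNA 1 gave 1, 3 with the block (0.308%), 4 with the correction (0.301%), 13 with both (1.67%), 0 with only the groups compared (0%) and 4 by the Wald test (0.298%). With shRNA 2 it gave 3, 5 with the block (0.532%), 19 with both (3.50%) and 0 with only the groups compared (0%). In bleomycin-treated cells shRNA 2 gave 1, 4 with both (1.26%) and 0 with only the groups compared (0.00717%). The difference of the knockdown effect between OIS and DMSO gave 0 with each shRNA, 1 and 1 with the block (HSPA5 with both, 0.0280% of all genes each) and 4 and 4 with the block and the correction (HSPA5, MANF, PDIA4 and HERPUD1 with both, 0.105% and 0.161%). OIS minus bleomycin gave 2, 1 without the filter (10.8%) and 0 with only the groups compared (14.3%). It gave 6 with the block (30.8%), 1 higher and 5 lower. With the correction it gave 9 (34.9%), 2 higher and 7 lower, and with both 10 (42.6%), 2 higher and 8 lower.

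Leaving out 1 library gave 2 to 6 in OIS with the control shRNA, 9 to 14 with shRNA 2 (9 without ER:RAS DMSO shRNA 2 replicate 2), 4 to 9 with bleomycin and the control shRNA, 11 to 19 with shRNA 1 (11 without bleomycin shRNA 1 replicate 4), 0 to 1 and 1 to 3 for knockdown in OIS with shRNA 1 and 2, and 0 to 3 for OIS minus bleomycin. The share of all genes called is not given for these fits, so the counts are not set against it. Further calls lost with only the groups compared were SDF2L1 and PDIA5 in OIS with the control shRNA, TXNDC11 with shRNA 1 and 2, P4HB with shRNA 2, DERL3 with bleomycin and the control shRNA or shRNA 1, MANF with shRNA 1, and DNAJB11, CALR, PDIA5, P4HB and EDEM1 with shRNA 2. The correction alone also lost SDF2L1 and PDIA5 in OIS with the control shRNA, ATF6 with bleomycin and shRNA 1 and DNAJB11 with shRNA 2. Without the filter TXNDC11 was lost in OIS with shRNA 2, and with bleomycin DNAJB9, CANX and EDEM1 with the control shRNA, UGGT1, PDIA5, DERL1 and ATF6 with shRNA 1 and CALR with shRNA 2. DNAJC10 with bleomycin and shRNA 1 changed sign, from 0.15 to -0.49, with the block and the correction. Where the numbers did not pair the libraries, the block shares only a number. Low counts limit DERL3, EDEM2 and ERO1B.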
